A study of Mus musculus with 6 samples.

Results

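The genes described here are those of the extracellular matrix and its turnover, measured in Kupffer cells, which are macrophages that reside in liver. They are the rows of the count table whose symbol names a collagen chain, a matrix metalloprotease (MMP), a tissue inhibitor of metalloproteases (TIMP), an ADAMTS protease or a lysyl oxidase, together with Dcn, Lum, Bgn, Sparc and Serpinh1. Mmp9 and Mmp12 were left out by the rule, and a row needed at least 10 counts over the 6 libraries. This gave 77 genes of the 14969 rows with that many counts. Mmp3, with 10 counts in all, was the lowest member, and Mmp24, with 9, fell just short.

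The libraries came from wild type C57BL/6 mice that bore tumours of Hepa1-6, a mouse hepatoma line. In the KC_EV group the tumour cells held an empty vector, and in the KC_Epo group they overexpressed erythropoietin, the hormone of red cell formation. Livers were taken on day 18 and Kupffer cells were sorted by flow cytometry, with 3 libraries per group, and no tumour-free control is analysed here. Sample titles number the mice, but do not state that a library is 1 animal, so a p-value here measures spread among the libraries, which may be technical. Libraries held between 23201076 and 33280754 counts. The 10 Kupffer cell markers were present in both groups and summed to 28886 to 31096 CPM (counts scaled to the library size with TMM factors) for KC_EV and 44605 to 49792 CPM for KC_Epo. Markers of other liver cells were present as well, 22 endothelial genes summing to 5605 to 6636 CPM and 2609 to 3667 CPM in these groups.

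Collagens are built from 3 chains wound into a helix. Fibrillar types I, III and V form the fibres of scar tissue, type IV forms the sheets of basement membranes, and type VI forms beaded filaments that link cells to fibres. In liver, most fibrillar collagen is made by stellate cells and portal fibroblasts, and type IV collagen by stellate and endothelial cells. Macrophages are better known for taking matrix apart with metalloproteases and cathepsins, and TIMPs bind metalloproteases and block them.

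Matrix genes were mostly lower in KC_Epo. Of the 77 genes 64 had enough counts to be tested, and by the edgeR quasi-likelihood test 23 fell and 5 rose at an adjusted p of at most 0.05 over all 13120 genes tested. Of all tested genes 15.4% fell and 16.9% rose, against 35.9% and 7.81% of the matrix genes. The median log2 fold change was -0.67 over the matrix genes and -0.0045 over all genes. The 3 libraries of a group did not overlap with those of the other for 36 matrix genes, with KC_Epo lower for 29 and higher for 7. Among all genes 48.3% did not overlap, KC_Epo being lower for 24.2% and higher for 24.1%. With library sizes only as the scaling, 27.6% of all genes fell and 9.09% rose, the median of all genes shifted to -0.16, and 26 matrix genes fell and 4 rose. The remaining 13 matrix genes had too few counts for a test.

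**Figure D1:**
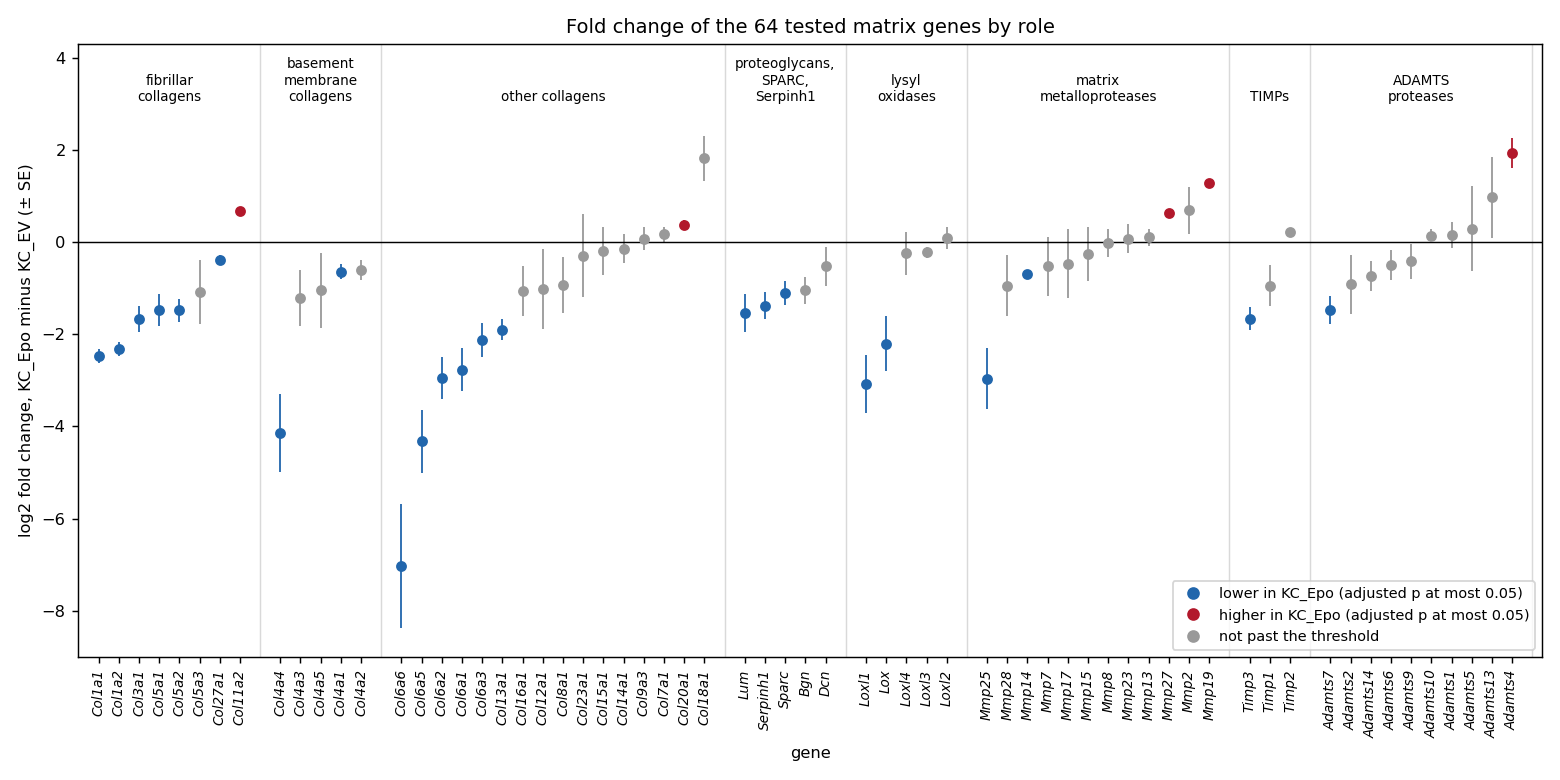
Log2 fold change (KC_Epo minus KC_EV, vertical axis, ± SE) of the 64 tested matrix genes, grouped by role and ordered within each group on the horizontal axis. Collagens hold most of the genes that fell, from -0.38 for Col27a1 to -7.03 for Col6a6, a fitted value that is no bound since Col6a6 had 0 counts in KC_Epo, and the 5 genes that rose are spread over collagens, metalloproteases and ADAMTS proteases.

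The genes with the largest changes were not the most abundant. Levels per length (RPKM, TMM-scaled CPM divided by kilobases of merged exon in the GENCODE M21 models) were highest in KC_EV for Sparc, at 72.1, followed by Timp2 at 32.6, Mmp27 at 27.5, Bgn at 21.3, Mmp14 at 19.2 and Col4a1 at 17.9. In KC_Epo the highest were Mmp27 at 42.4 RPKM, Timp2 at 37.8 and Sparc at 33.6, whose libraries overlapped. Adamts10, Mmp14 and Col4a1 followed at 12.7, 11.8 and 11.5 RPKM, again with overlapping libraries.

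The start sites of genes that moved in opposite directions are shown next, as the DNA just before transcription starts. RefSeq promoter windows on GRCm38.p6, another build than that of the counts, were at hand for 53 of the 77 genes, and each sequence below is the 150 bases before the start site, 5′ to 3′ on the gene's strand. No annotated exon lies in any of the 5 stretches. Capitals mark any of 4 short motifs found by letter on either strand. The CCAAT box was searched as its name is spelled. The box near which many tissue-specific genes start was searched as TATAAA and is called the TATA box. The GC box, common in promoters of widely expressed genes, was searched as GGGCGG. The AP-1 site, bound by Fos and Jun factors, was searched with any base in its middle, as TGANTCA. The first 3 genes fell and the last 2 rose.
Col3a1, chr1:45311388-45311537, plus strand: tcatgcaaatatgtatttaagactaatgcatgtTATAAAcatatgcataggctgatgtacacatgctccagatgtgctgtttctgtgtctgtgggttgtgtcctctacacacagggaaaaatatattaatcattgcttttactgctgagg
Serpinh1, chr7:99353240-99353389, minus strand: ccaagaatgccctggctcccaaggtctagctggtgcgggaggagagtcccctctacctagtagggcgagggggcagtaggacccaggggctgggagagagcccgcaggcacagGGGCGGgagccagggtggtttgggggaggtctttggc
Mmp14, chr14:54431448-54431597, plus strand: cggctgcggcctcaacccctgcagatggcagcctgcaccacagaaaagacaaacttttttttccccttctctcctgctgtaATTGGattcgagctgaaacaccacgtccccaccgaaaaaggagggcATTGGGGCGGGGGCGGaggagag
Mmp27, chr9:7571246-7571395, plus strand: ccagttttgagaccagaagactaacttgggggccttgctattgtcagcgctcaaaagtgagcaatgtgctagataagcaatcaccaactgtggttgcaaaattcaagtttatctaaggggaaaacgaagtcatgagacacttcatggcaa
Col11a2, chr17:34038988-34039137, plus strand: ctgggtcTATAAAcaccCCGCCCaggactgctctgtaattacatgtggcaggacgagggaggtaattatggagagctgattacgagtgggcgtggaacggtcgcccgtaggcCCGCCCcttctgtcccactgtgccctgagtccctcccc
Mmp14 had 2 reversed CCAAT boxes and 2 GC boxes, the CCAAT box nearer the start sharing a base with the GC box beside it. Mmp27 had none of the 4 motifs in this stretch. The marked TATAAA letters begin 117 bases before the start in Col3a1 and 143 bases before it in Col11a2, and whether they act was not tested. Over windows that reach 250 bases before and 50 after the start, a GC box was found in 11 of the 17 matrix genes that fell and had a window, or 64.7%, and in 66.1% of all tested genes with one. A CCAAT box was found in 3 of these 17, or 17.6%, against 43% of all tested genes, a TATA box in 11.8% against 9.53% and an AP-1 site in 5.88% against 6.58%. These shares are over few genes and describe letters only.

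Fibrillar collagens fell, and type I fell furthest among them. Of 8 tested fibrillar chains 6 fell and 1 rose, or 75% and 12.5%, against 15.4% and 16.9% of all tested genes. Col1a1, a chain of type I collagen, was at 24.1, 27.8 and 23.2 CPM in KC_EV 1 to 3 and at 5.50, 3.93 and 4.06 CPM in KC_Epo 1 to 3. The groups stood far apart and the KC_Epo libraries lay close together. Its log2 fold change was -2.47 ± 0.15 (SE; edgeR adjusted p = 5.96e-07), which is 5.55-fold lower. Col1a2, its partner chain, was at 27.5, 27.6 and 24.8 CPM against 5.82, 4.05 and 6.20 CPM, with a log2 fold change of -2.32 ± 0.16.

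Col3a1, the type III chain, was at 21.9, 26.1 and 28.0 CPM in KC_EV and at 11.1, 4.96 and 7.98 CPM in KC_Epo. Every KC_Epo library was lower, but KC_Epo 1 held more than 2-fold the level of KC_Epo 2. The log2 fold change was -1.66 ± 0.28 (edgeR adjusted p = 0.00564). The type V chains, which seed and size type I fibres, fell as well: Col5a1 fell by 1.48 on the log2 scale, from 4.74 ± 1.13 to 1.70 ± 0.73 CPM (SD, n = 3), and Col5a2 also fell by 1.48, from 8.79 ± 1.30 to 3.15 ± 0.97 CPM. Col5a3 did not pass, with 49 and 20 counts over the 2 groups.

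The other fibrillar chains changed less. Col27a1 was at 25.2, 27.0 and 26.0 CPM in KC_EV and at 22.7, 18.1 and 19.2 CPM in KC_Epo (log2 fold change -0.38 ± 0.11). Its call was lost without KC_EV 2, KC_EV 3, KC_Epo 2 or KC_Epo 3, where the edgeR adjusted p was 0.0569 to 0.0892. Col11a2, a chain of the cartilage type XI collagen, rose from 38.3, 47.7 and 45.6 CPM to 72.1, 66.0 and 72.6 CPM, with a log2 fold change of 0.68 ± 0.09 (edgeR adjusted p = 0.000184). All 3 KC_Epo libraries lay above all 3 KC_EV libraries. It was the fibrillar chain that went against the rest.

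**Figure D2:**
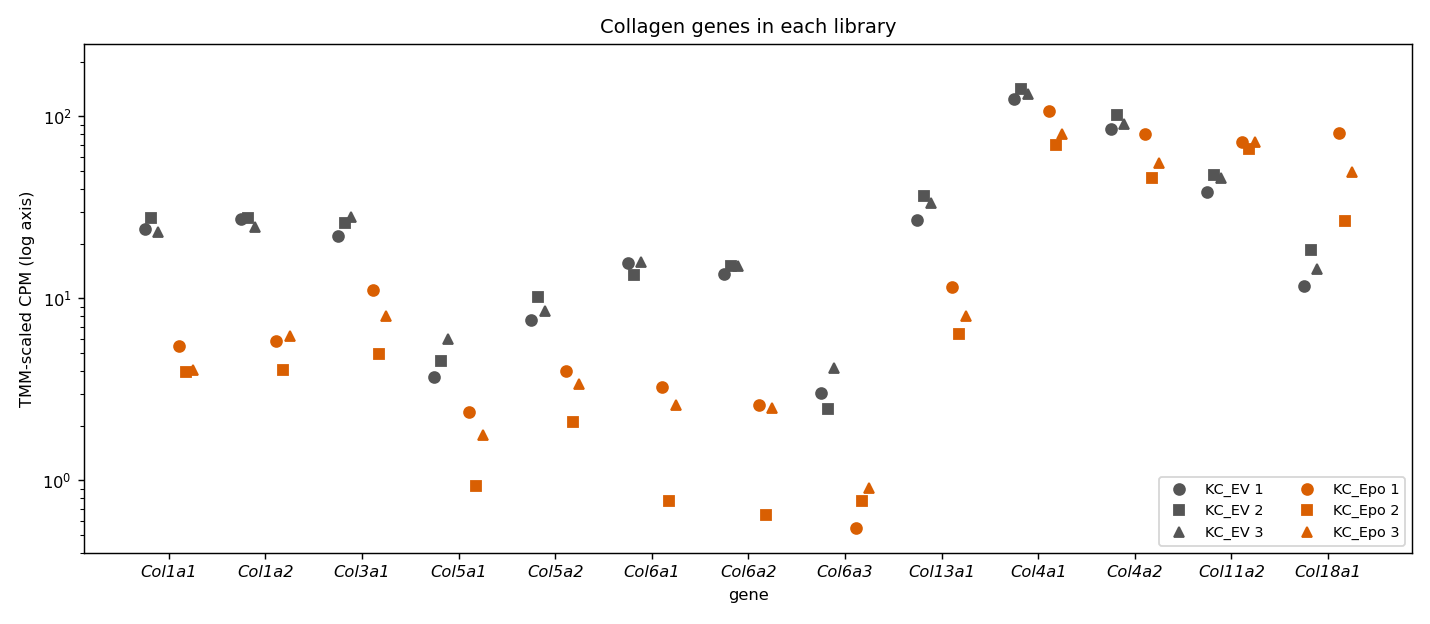
TMM-scaled CPM (log axis) of 13 collagen genes in each of the 6 libraries, grey for KC_EV and orange for KC_Epo, with a marker shape for each replicate number. Col1a1 and Col1a2 show well separated groups, and for Col3a1, Col6a1 and Col18a1 the KC_Epo libraries are spread with KC_Epo 1 highest.

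Type VI collagen fell in every tested chain. Col6a1 was at 15.7, 13.4 and 15.9 CPM in KC_EV and at 3.28, 0.77 and 2.60 CPM in KC_Epo, with a log2 fold change of -2.77 ± 0.47 (edgeR adjusted p = 0.00737). Col6a2, at 13.6, 15.2 and 15.0 CPM against 2.60, 0.64 and 2.51 CPM, had a log2 fold change of -2.94 ± 0.46. KC_Epo 2 was the lowest library for both chains. Col6a3 was at 3.03, 2.46 and 4.16 CPM against 0.55, 0.77 and 0.91 CPM, a log2 fold change of -2.12 ± 0.37.

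Col6a5 and Col6a6, later-found relatives of Col6a3, were nearly absent from the KC_Epo libraries. Col6a5 had 159, 111 and 123 counts in KC_EV 1 to 3 and 0, 6 and 10 counts in KC_Epo 1 to 3, with a log2 fold change of -4.33 ± 0.69. Its value was -3.69 without KC_Epo 1 and -5.33 without KC_Epo 3, and it passed both times. Col6a6 had 13, 23 and 16 counts against 0 in each KC_Epo library, at least 15.1-fold lower against a floor of 3 counts over the KC_Epo group, a bound that covers counting error only. Its fitted log2 value of -7.03 depends on the prior count.

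Among the basement membrane chains, Col4a1 and Col4a2 are transcribed away from each other from neighbouring start sites, and their products join in 1 helix. Col4a1 was at 125, 142 and 133 CPM in KC_EV and at 107, 69.4 and 79.98 CPM in KC_Epo, with a change of -0.64 ± 0.16 (edgeR adjusted p = 0.0201). The call was lost without KC_EV 1, KC_EV 2, KC_EV 3 or KC_Epo 3 (adjusted p = 0.0588 to 0.0708). Col4a2 had nearly the same change, at 85.3, 101 and 90.8 CPM against 80.2, 46.0 and 55.3 CPM (-0.61 ± 0.22), and did not pass (adjusted p = 0.0912). It passed without KC_Epo 1, at -0.86 (adjusted p = 1.56e-05), and under DESeq2 with all 6 libraries, at -0.61 (DESeq2 adjusted p = 0.000625). For both genes the groups did not overlap and KC_Epo 1 came nearest to KC_EV.

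The rarer type IV chains had few counts. Col4a4 fell, with 34, 15 and 41 counts in KC_EV and 2, 0 and 2 in KC_Epo. Its log2 fold change was -4.14 ± 0.84, and -3.52 without KC_Epo 2. Col4a3, with 71 and 26 counts over the groups, and Col4a5, with 83 and 33, did not pass. Col4a6, which was not tested, had 5, 1 and 12 counts in KC_EV and 1, 0 and 0 in KC_Epo, so the groups overlapped.

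Among the remaining collagens, Col13a1, a collagen anchored in the cell membrane, fell. It was at 26.9, 36.7 and 33.3 CPM in KC_EV and at 11.6, 6.40 and 7.98 CPM in KC_Epo, with a log2 fold change of -1.90 ± 0.22 (edgeR adjusted p = 0.00054). Col18a1, the basement membrane collagen from which endostatin is cut, had higher values in KC_Epo but did not pass. Library values of Col18a1, Col4a4, Col6a6 and Mmp25 are given by a choice made after their values were seen. Col18a1 was at 11.7, 18.4 and 14.4 CPM against 81.0, 26.8 and 49.5 CPM, a log2 fold change of 1.82 ± 0.49 (adjusted p = 0.0546). The groups did not overlap, and KC_Epo 1 held over 3-fold the level of KC_Epo 2. It passed without KC_Epo 1 (1.36, adjusted p = 0.0464) and without KC_Epo 2 (2.15, adjusted p = 0.00539). Under DESeq2 with all 6 libraries it passed too (1.82, DESeq2 adjusted p = 0.000725).

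In the same libraries the 15 hepatocyte markers summed to 22154, 6472 and 13246 CPM in KC_Epo 1 to 3, the same order as Col18a1, and to 2757 to 3423 CPM in KC_EV. Most of each sum was Alb, which made up 14665, 3996 and 8589 CPM of those KC_Epo sums. Of the 15 markers 11 rose by the edgeR test and 0 fell, where 16.9% of all tested genes rose and 15.4% fell. Ass1, Cps1 and Pck1 had lower means in KC_Epo and did not pass, at log2 fold changes of -0.43, -0.42 and -0.75. Cyp3a11 did not pass either, at 2.32. The part of hepatocytes in the Col18a1 values was not tested. Col20a1, a fibre-associated collagen, was at 15.4, 18.3 and 19.1 CPM against 24.0, 22.9 and 21.2 CPM and rose by 0.37 ± 0.11. It lost its call without KC_EV 1, KC_EV 2 or KC_Epo 1 (adjusted p = 0.0558 to 0.0769), with upper-quartile factors (0.31, adjusted p = 0.0567) and with library sizes only (0.21, adjusted p = 0.176). Col7a1, of anchoring fibrils, stood at 13.1 ± 2.93 CPM and 14.8 ± 0.83 CPM, and Col14a1, another fibre-associated collagen, at 4.85 ± 0.32 and 4.39 ± 2.12 CPM. Neither passed, nor did Col8a1, Col9a3, Col12a1, Col15a1, Col16a1 and Col23a1. Over all 29 tested collagens 14 fell and 2 rose, or 48.3% and 6.9%, against 15.4% and 16.9% of all tested genes. Their median log2 fold change was -1.06, unchanged when Col6a6 is set to its bound.

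The chaperone Serpinh1 and 2 of the 5 lysyl oxidases fell, 40% of the oxidases against 15.4% of all tested genes. Serpinh1, which encodes the collagen chaperone HSP47 of the endoplasmic reticulum, was at 33.7, 33.7 and 33.9 CPM in KC_EV and at 17.6, 7.72 and 13.7 CPM in KC_Epo. KC_EV libraries were nearly equal, and KC_Epo libraries were all lower but spread over 2-fold. The log2 fold change was -1.38 ± 0.29 (edgeR adjusted p = 0.0169), and the call was lost without KC_EV 2, KC_EV 3 or KC_Epo 3 (adjusted p = 0.0586 to 0.0724). Lox and Loxl1, enzymes that start collagen and elastin cross-links, fell at low levels. Lox had 47, 32 and 40 counts against 5, 4 and 12, a log2 fold change of -2.20 ± 0.61, which was -3.04 without KC_Epo 3. It lost its call without KC_EV 1 (-2.04, adjusted p = 0.0593).

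Loxl1 had 54, 69 and 39 counts against 12, 4 and 1, a log2 fold change of -3.08 ± 0.63, which was -4.12 without KC_Epo 1. The more abundant Loxl3 had means of 31.1 ± 3.15 and 26.7 ± 3.75 CPM and did not pass, nor did Loxl2 at 7.05 ± 1.41 and 7.51 ± 2.46 CPM or Loxl4 below 1 CPM on average in each group. Among the lysyl oxidases the 2 with calls were thus low-count genes.

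Sparc and the small leucine-rich proteoglycans had lower values in KC_Epo on average, and of these 4 genes Sparc and Lum passed. Sparc, a secreted collagen-binding glycoprotein, was at 247, 292 and 281 CPM in KC_EV and at 169, 89.3 and 123 CPM in KC_Epo, a log2 fold change of -1.10 ± 0.25 (edgeR adjusted p = 0.0298). The call was lost without KC_EV 1, KC_EV 2, KC_EV 3 or KC_Epo 3 (adjusted p = 0.0600 to 0.0969). Bgn, biglycan, was at 121, 135 and 134 CPM against 86.9, 41.2 and 60.6 CPM. Its log2 fold change of -1.05 ± 0.29 did not pass (adjusted p = 0.0562), but it passed without KC_Epo 1 (-1.35, adjusted p = 0.000656) or KC_Epo 2 (-0.81, adjusted p = 0.00315).

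Dcn, decorin, which binds collagen fibres and growth factors, was at 28.8, 29.9 and 29.3 CPM against 31.8, 10.5 and 18.5 CPM. KC_Epo 1 stood above all KC_EV libraries and the other two KC_Epo libraries below them, so that the gene did not pass (-0.53 ± 0.43, edgeR adjusted p = 0.411). Without KC_Epo 1 its value was -1.02 (adjusted p = 0.00657). Lum, lumican, fell from 1.89, 1.92 and 2.92 CPM to 1.06, 0.51 and 0.73 CPM (-1.54 ± 0.41), and lost its call without KC_EV 3 or KC_Epo 3 (adjusted p = 0.0818 and 0.0563). In all 5 of these genes, Serpinh1 included, KC_Epo 1 was highest, KC_Epo 3 next and KC_Epo 2 lowest.

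Of 12 tested metalloproteases 2 rose and 2 fell, or 16.7% each way, near the 16.9% and 15.4% of all tested genes, so the count is no result about the family. Mmp14, the membrane-bound protease that cleaves fibrillar collagen and activates the Mmp2 proenzyme, was at 112, 120 and 111 CPM in KC_EV and at 73.9, 66.6 and 70.8 CPM in KC_Epo. Both groups were tight and far apart, at a log2 fold change of -0.70 ± 0.07 (edgeR adjusted p = 2.55e-05). Mmp19, a secreted protease of basement membrane proteins, rose from 14.7, 15.8 and 16.3 CPM to 34.5, 39.7 and 39.1 CPM. The log2 fold change was 1.28 ± 0.10 (edgeR adjusted p = 2.97e-06), which is 2.43-fold. Models on the opposite strand overlap 28.3% of its exon length, and the strand setting of the counting is not given in the sources used here.

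Mmp27, a less studied family member, rose from 62.4, 61.1 and 59.1 CPM to 97.3, 86.2 and 97.3 CPM, a log2 fold change of 0.62 ± 0.07 (edgeR adjusted p = 7.83e-05). No annotated exon of another gene overlaps it. Mmp25, a membrane-anchored protease known from neutrophils, fell at a low level, from 25, 31 and 26 counts to 6, 2 and 1. Its log2 fold change was -2.96 ± 0.67, and -3.81 without KC_Epo 1. The 11 neutrophil markers summed to 251, 395 and 551 CPM in KC_EV and to 333, 270 and 293 CPM in KC_Epo. Most of each sum but that of KC_EV 3 was Csf3r, at 247, 243 and 260 CPM against 300.2, 242 and 263 CPM. S100a8, a defining neutrophil gene, was at 0.63, 21.3 and 40.4 CPM in KC_EV and at 4.67 to 5.33 CPM in KC_Epo, so it was nearly absent from KC_EV 1, whose 25 Mmp25 counts were close to those of KC_EV 2 and 3. The part of neutrophils in the Mmp25 values was not tested.

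The secreted collagenases Mmp13 and Mmp8 did not pass the test. Mmp13 was at 8.54, 9.53 and 7.46 CPM against 7.26, 9.14 and 11.2 CPM (log2 fold change 0.11 ± 0.18, edgeR adjusted p = 0.695), and turned to -0.05 both with library sizes only and without KC_Epo 3. Mmp8, the neutrophil collagenase, was at 2.71, 1.98 and 3.04 CPM against 2.09, 2.90 and 2.69 CPM (-0.01 ± 0.30). The groups overlapped for both genes. Mmp2, the gelatinase that Mmp14 activates, was at 1.48, 2.88 and 1.89 CPM against 1.22, 5.73 and 3.14 CPM. It did not pass at 0.69 ± 0.51 (adjusted p = 0.335), but passed without KC_Epo 1 at 1.10 (adjusted p = 0.0291). Mmp7, Mmp15, Mmp17, Mmp23 and Mmp28 did not pass either, with means from 0.27 to 2.30 CPM. Mmp10 had 3, 9 and 0 counts in KC_EV and 0 in each KC_Epo library and was not tested, as were Mmp3 and Mmp11.

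Of the inhibitors, Timp3 fell and the more abundant Timp2 did not. Timp3, which stays bound to the matrix and also blocks ADAM and ADAMTS proteases, was at 77.0, 86.2 and 79.7 CPM in KC_EV and at 32.5, 17.0 and 27.3 CPM in KC_Epo. Its log2 fold change was -1.66 ± 0.25 (edgeR adjusted p = 0.00609), or 3.17-fold lower. The gene lies opposite Syn3, whose exons overlap 21.3% of its exon length. Timp2, which also takes part in Mmp2 activation by Mmp14, was at 131, 123 and 127 CPM against 132, 159.6 and 149.98 CPM. It did not pass at 0.21 ± 0.08 (adjusted p = 0.0608) and did so without KC_Epo 1, at 0.29 (adjusted p = 0.00668). Timp1, the inducible inhibitor, was at 4.41, 2.62 and 1.36 CPM against 1.86, 0.90 and 1.60 CPM and did not pass (-0.94 ± 0.45). Timp4, which was not tested, had 1, 0 and 10 counts in KC_EV and 0, 0 and 1 in KC_Epo, so nearly all of its counts came from KC_EV 3.

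**Figure D3:**
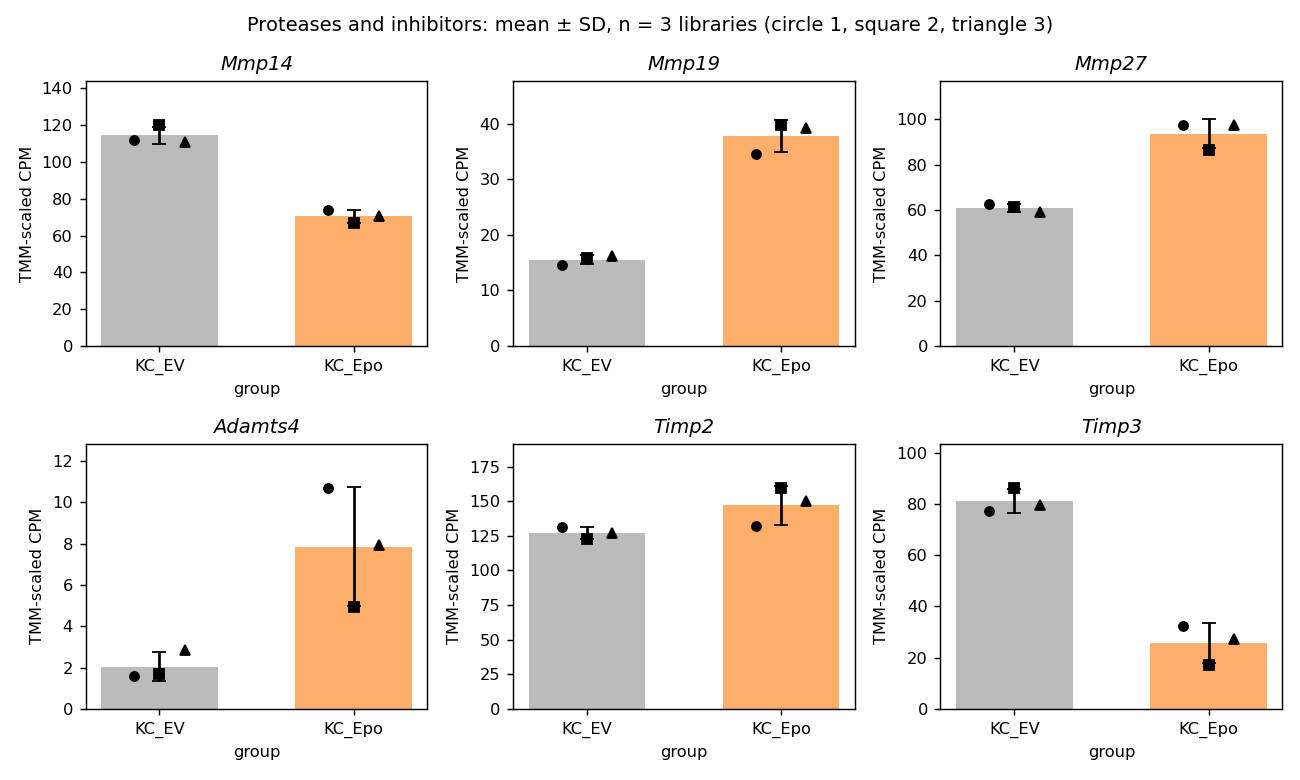
TMM-scaled CPM of 4 proteases and 2 inhibitors, with bars for the mean, error bars for the SD (n = 3 libraries) and points for the single libraries. Mmp14 and Timp3 are lower in every KC_Epo library, and Mmp19, Mmp27, Adamts4 and Timp2 are higher in every one, though Timp2 did not pass the edgeR test.

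Of 10 tested ADAMTS proteases 1 rose and 1 fell, or 10% each way, against 16.9% and 15.4% of all tested genes. Adamts4, an aggrecanase that cleaves cartilage and vessel wall proteoglycans, rose from 1.61, 1.66 and 2.86 CPM to 10.7, 4.96 and 7.93 CPM. The log2 fold change was 1.94 ± 0.33 (edgeR adjusted p = 0.00108), the largest rise among the matrix genes. Adamts7, a protease that cleaves cartilage oligomeric matrix protein, fell from 6.999, 10.7 and 9.15 CPM to 4.31, 1.80 and 3.65 CPM (-1.47 ± 0.30). The most abundant members did not pass: Adamts10, which acts on fibrillin, was at 94.6 ± 15.6 and 104 ± 12.2 CPM, and Adamts1, another aggrecanase, at 38.6 ± 2.38 and 42.9 ± 15.5 CPM. Adamts2, which trims the ends of procollagen, had 76 counts in KC_EV and 36 in KC_Epo and did not pass, nor did Adamts5, Adamts6, Adamts9, Adamts13 and Adamts14.

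Other genes of the matrix were read from 5 lists of 105 genes, of which 90 were tested, and 22 rose and 25 fell. These are 24.4% and 27.8%, against 16.9% and 15.4% of all tested genes. Collagen processing enzymes had 7 of 19 members higher and 2 lower. Colgalt1, which adds galactose to collagen hydroxylysines, rose from 337 ± 11.98 to 640.3 ± 4.15 CPM (log2 fold change 0.93 ± 0.07, edgeR adjusted p = 2.04e-06). Plod1 and Plod3, lysyl hydroxylases, rose by 0.58 ± 0.07 and 0.47 ± 0.10, and P4hb, the shared subunit of prolyl 4-hydroxylase and a protein disulfide isomerase, by 0.47 ± 0.07. These 4 enzymes, with the smallest adjusted p of their list, thus went the other way from most tested fibrillar chains. The 2 lower genes were Colgalt2, at -1.73 ± 0.49, and Pcolce, at -0.62 ± 0.19, both named after their values were seen. The list had a median log2 fold change of 0.076, and 10 of its 19 tested genes did not pass.

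Among laminins, nidogens and other basement membrane genes 7 of 12 were lower and 1 was higher. These are 58.3% and 8.33%, against 15.4% and 16.9% of all tested genes. The laminin chain Lama5 fell by 1.47 on the log2 scale, from 24.8 ± 4.11 to 8.92 ± 2.18 CPM, and Lamb2 by 0.85. Lama3 had a value of -4.44 ± 0.68, which was -3.78 without KC_EV 1 and -5.69 without KC_Epo 1. The member that rose was Nid2, nidogen 2, from 47.9 ± 2.21 to 87.8 ± 5.16 CPM (0.87 ± 0.08). Of 26 other glycoproteins and proteoglycans 8 fell and 4 rose, or 30.8% and 15.4%, against 15.4% and 16.9% of all tested genes. Fbn1, fibrillin 1, had a value of -2.01 ± 0.26, Fbln2, fibulin 2, one of -1.54 ± 0.27 and Spp1, osteopontin, one of -1.34 ± 0.18, while Ecm1 rose by 0.42 ± 0.08.

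Of 16 receptor and uptake genes for collagen 5 rose and 4 fell, or 31.2% and 25%, against 16.9% and 15.4% of all tested genes. The lysosomal cathepsins Ctsb and Ctsl rose by 1.02 ± 0.10 and 0.62 ± 0.07 on the log2 scale. Mrc1, the mannose receptor, which also binds collagen, rose by 0.30 ± 0.08 and lost its call with library sizes only (0.14) and without KC_EV 3 (0.26, edgeR adjusted p = 0.0687). Mrc2, the collagen endocytosis receptor of fibroblasts, was at 1.70 ± 0.47 and 1.00 ± 0.41 CPM and did not pass. Ctsk, the collagen-cutting cathepsin of osteoclasts, was at 3.41 ± 0.96 and 1.87 ± 0.56 CPM and did not pass (-0.86, adjusted p = 0.0645). It passed without KC_Epo 1 (-1.09, adjusted p = 0.0304), with upper-quartile factors (-0.92, adjusted p = 0.0495) and with library sizes only (-1.02, adjusted p = 0.0330). Itga1, the collagen-binding integrin chain, had a value of -1.21 ± 0.16 and Stab1, a scavenger receptor of Kupffer and endothelial cells, one of -0.74 ± 0.13.

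Of 17 activators and inhibitors of proteases 5 rose and 4 fell, or 29.4% and 23.5%, against 16.9% and 15.4% of all tested genes. Furin, the proprotein convertase that activates Mmp14, rose by 0.58 ± 0.07 and Adam10, a sheddase, by 0.61 ± 0.08. Adam19, another member of the ADAM family, had a value of -1.002 ± 0.13. Vtn and Plg, plasma proteins made by hepatocytes and chosen here after their values were seen, rose by 2.24 ± 0.49 and 2.18 ± 0.51. Plg was at 460, 144 and 285 CPM in KC_Epo 1 to 3, the order of the hepatocyte markers. Their calls were lost without KC_EV 1, KC_EV 2, KC_EV 3 or KC_Epo 3, and that of Plg also without KC_Epo 1 (adjusted p = 0.0555).

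Markers of cells that make matrix were read beside these values. In bulk libraries, fewer cells of a type and less RNA per cell cannot be told apart. The stellate cell and fibroblast list held none of the 77 matrix genes, but shared Dpt with the list of other glycoproteins and proteoglycans. It summed to 57.2, 72.1 and 63.4 CPM in KC_EV 1 to 3 and to 83.9, 44.6 and 64.8 CPM in KC_Epo 1 to 3. The groups overlapped, at means of 64.2 ± 7.46 and 64.4 ± 19.7 CPM (SD, n = 3), where Col1a1 and Col1a2 were 5.55-fold and 4.99-fold lower. Rgs5, Vipr1 and Thy1 made up most of both means, at 12.3, 12.3 and 12.97 CPM against 20.3, 13.3 and 7.99 CPM. Rgs5 did not pass, at 0.73 ± 0.44, but its higher mean offset lower means of other genes in the sum. The list had a median log2 fold change of -0.16. Of its 17 tested genes 2 changed by the edgeR test, both lower, or 11.8% where 15.4% of all tested genes fell, and none of its 20 genes was at 0 over a whole group. The 2 were Pdgfra, a growth factor receptor of fibroblasts, at -2.69 ± 0.54 and Thy1, a surface marker of fibroblasts and T cells, at -0.70 ± 0.18. Thy1 lost its call without KC_EV 2, KC_EV 3 or KC_Epo 3. Dpt, Gli1 and Myh11 had too few counts for a test. They had 26, 29 and 26 counts over KC_EV and 1, 8 and 10 over KC_Epo. Pdgfrb, Reln and Tagln had higher means in KC_Epo and did not pass, so the genes of the list did not move as 1. Lrat and Des, which define quiescent stellate cells, were at 1.59 to 2.59 and 2.43 to 4.64 CPM in KC_EV and at 1.03 to 2.38 and 1.13 to 2.99 CPM in KC_Epo. The part of these cells in the collagen values was not tested.

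Endothelial markers were lower in KC_Epo too. Their sum was 5605, 6636 and 6213 CPM in KC_EV against 3667, 2609 and 3003 CPM in KC_Epo, 1.99-fold lower on average, against 2.15-fold for Sparc, 3.17-fold for Timp3 and 1.56-fold for Col4a1. The median log2 fold change of the 22 markers was -1.40, a larger fall than that of the sum. Where 15.4% of all tested genes fell and 16.9% rose, 15 of the 22 markers fell and 1 rose. The marker that rose was Cdh5, the cadherin of endothelial junctions, by 0.25 ± 0.07. None of the 22 markers was at 0 over a whole group, and Aqp1, a water channel of sinusoidal endothelium, had a log2 fold change of -2.03 ± 0.25. The 10 cholangiocyte markers summed to 78.3, 39.5 and 38.4 CPM in KC_EV and to 21.5, 13.7 and 19.8 CPM in KC_Epo. Their part in the values of the matrix genes was not tested.

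**Figure D4:**
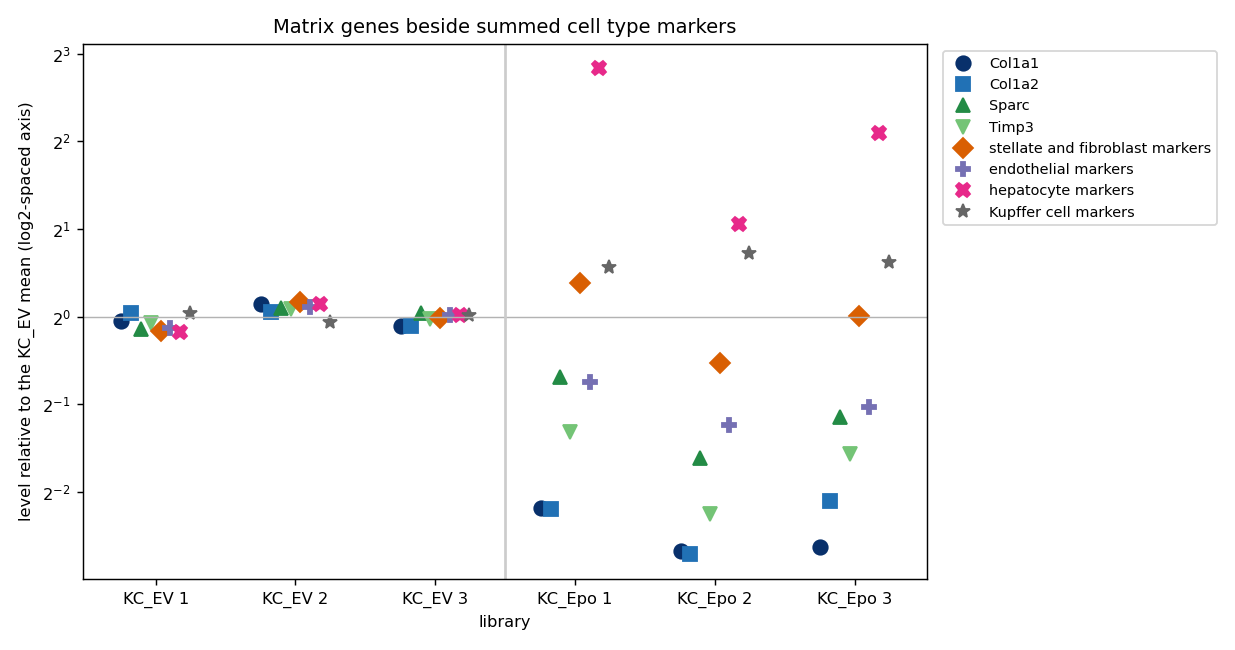
Levels of Col1a1, Col1a2, Sparc and Timp3 and of 4 summed marker lists in each library (horizontal axis), each divided by its KC_EV mean (log2-spaced vertical axis). Stellate and fibroblast markers lie above, below and at the KC_EV mean in KC_Epo 1, 2 and 3, while Col1a1 and Col1a2 lie lowest in all 3, and Sparc and Timp3 are highest in KC_Epo 1 and lowest in KC_Epo 2, as are the endothelial, stellate and hepatocyte sums.

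The spread between KC_Epo libraries also marked the matrix genes. KC_Epo 1 was highest, KC_Epo 3 next and KC_Epo 2 lowest for 33 of the 64 tested genes, or 51.6%, where 26.7% of all tested genes had this order. KC_Epo 1 exceeded KC_Epo 2 by more than 1.5-fold for 35 matrix genes, or 54.7%, against 14.2% of all genes. By role this ratio was passed by 5 of 5 basement membrane chains and by 5 of 5 of the proteoglycan, Sparc and Serpinh1 group. Few reads stood behind some of these chains. In KC_Epo 1 and 2, Col4a4 had 2 and 0 counts, Col4a3 12 and 5 and Col4a5 11 and 5. The ratio was passed by 4 of 12 metalloproteases, with Mmp14, Mmp19 and Mmp27 not among them. Without KC_Epo 1, 27 of 68 tested matrix genes fell and 7 rose, where 16.0% of all genes fell and 18.0% rose. Without both KC_EV 1 and KC_Epo 1, a choice made after seeing the data, 26 of 66 fell and 5 rose. There 18.1% of all genes fell and 18.8% rose.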

How the data were processed

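The deposited table gives read counts per gene symbol, whole numbers that the authors did not normalize, for 15458 rows and 6 libraries. A stranded mRNA kit was used, per the labels' protocols. Tools and build in the submitters' processing notes were STAR 2.7.3a, HTSeq 0.11.2, Bowtie2 2.5.1, FastQC 0.11.8 and GRCm39, without their roles, and how strand was counted is unknown here. For 12 symbols present on 2 rows, the deeper row kept the plain symbol and the other was tested as a row of its own. Library totals were 23201076 to 33280754 counts. Intervals are exact, at 95%, and cover counting error only.

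The fit used edgeR 4.0.16 under R 4.3.3, with TMM factors, the filterByExpr filter and a robust quasi-likelihood test on group alone, two-sided, over 13120 genes, with Benjamini-Hochberg adjustment and a threshold of 0.05. A standard error is the fold change divided by the root of F. The procedure was tested on simulated data. Alternatives were other size factors and filters, DESeq2 1.42.0, a replicate block, a prior count of 0.5 and leaving out each library. The genes, lists and naming rule were chosen with earlier results of these data known. The rule gives library values for matrix genes past the threshold with a mean of at least 1 CPM and for 19 fixed genes, and from each related list the 4 genes with the smallest adjusted p, with Mrc1, Mrc2, Ctsk and Spp1, of which 1 is not reported here.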

Additional observations from a re-analysis of the deposited data

How the results depend on the processing

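The number of matrix genes that fell was 23, and 18 to 27 when 1 library was left out, lowest without KC_Epo 3 and highest without KC_Epo 1. Those that rose numbered 5, and 4 to 7. Over other size factors, filters and DESeq2 20 to 26 fell and 4 to 6 rose. Of 28 called matrix genes 21 kept their call in every setting in which they were tested, 17 lower and 4 higher (Adamts4, Col11a2, Mmp19 and Mmp27). The filter at 1 CPM dropped Col4a4, Col6a6 and Mmp25.

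With library sizes only, 1193 of all genes rose and 3616 fell, against 2219 and 2015, so the share of rises among calls went from 52.4% to 24.8%, and 40.6% with upper-quartile factors. The related lists then had 13 genes higher in place of 22. Over all genes, 1477 to 2481 rose and 1251 to 2386 fell with libraries left out, fewest without KC_Epo 3. Mmp13 turned to -0.054 with library sizes only, and ranged from -0.045 to 0.26 with libraries left out. Mmp8 ranged from -0.17 to 0.14. The cause of these shifts was not tested.

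Same-numbered libraries of the groups did not deviate together (correlations of -0.11, -0.15 and -0.04). Deviations were taken within groups of 3 libraries, so these values cannot show whether the numbers pair them. With a replicate block 21 matrix genes fell and 4 rose, and 1800 and 1558 of all genes rose and fell. Sparc, Col4a1 and Col20a1 lost their calls there (edgeR adjusted p = 0.0797, 0.0527 and 0.0636), as did Vtn and Plg (0.108 and 0.123). Depth limits the 13 untested genes most.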

Other observations

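KC_EV 1 stood apart in several matrix genes. Lamb3, a laminin chain of epithelial basement membranes, was at 7.53 CPM there and at 1.15 and 1.24 CPM in KC_EV 2 and 3. Fbn2, fibrillin 2, was at 5.55 CPM there and under 0.1 CPM in the other two. Col4a5 was at 1.92 CPM in KC_EV 1 against 0.29 and 0.38 CPM, and Col12a1 at 3.50 CPM against 0.58 and 0.62 CPM. The cholangiocyte markers, which name bile duct epithelium, were also highest in that library, at 78.3 CPM against 39.5 and 38.4 CPM. Their part in these values was not tested, and these genes were picked after their values were seen.

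Other single libraries held most of a gene's counts. Col2a1, the chain of cartilage type II collagen, had 41 of its 51 counts in KC_Epo 3. Elane, the neutrophil elastase, was at 18.96 and 37.3 CPM in KC_EV 2 and 3 and at 0.71 CPM or less in each of the other libraries. Of the untested matrix genes, Col25a1 had 0, 7 and 14 counts in KC_EV 1 to 3 and 0 in each KC_Epo library, so the groups overlapped at 0.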
